A study of Mus musculus with 6 samples.

Results

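The dispersed imprinted growth network genes are 10 mouse genes, Peg3, Plagl1, Mest, Grb10, Ndn, Magel2, Snrpn, Impact, Nnat and Slc38a4, that are expressed mainly from 1 parental chromosome and lie outside the Dlk1, Peg10 and Igf2 domains. They were taken as a named list, and each gene was read by its brightest probeset among those with exactly 1 gene symbol. Of the 10, 9 have such a probeset, among 19938 genes in all. Snrpn has none, because the platform annotation gives its probeset to both Snurf and Snrpn, so that probeset was tested separately. The samples are induced pluripotent stem (iPS) cell lines, 3 shECAD clones (numbered 4, 8 and 9) and 3 Ctrl clones (2, 3 and 4), with 1 Affymetrix whole-transcript array each. All 6 lines came from mouse embryonic fibroblasts of the OG2 strain given retroviruses for Sox2, Klf4, Oct4 and c-Myc. The shECAD clones also received an E-cadherin shRNA retrovirus and the Ctrl clones a Luciferase shRNA retrovirus. They were plated on a feeder layer at day 6 and picked as colonies at day 14, and the feeders were taken out before RNA extraction. Every line is a single clone. Whether the clones of a group came from different infections is not stated, and all p-values rest on clone-to-clone spread, which may be technical in part. The question is whether E-cadherin knockdown during reprogramming leaves lines with other levels of these genes.

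Genomic imprinting marks a gene by DNA methylation laid down in the egg or the sperm, so that 1 parental copy is silent in the offspring. All of these genes except Grb10 are expressed mainly from the paternal copy, while Grb10 is maternal in most tissues and paternal in neurons. Many act on fetal growth, and in the mouse Plagl1 is known to regulate other imprinted genes as a network. In pluripotent cells the marks are kept by Zfp57 with Trim28 and by the maintenance methylation enzyme Dnmt1 with Uhrf1, which guides it. The marks can be lost in culture. The arrays measured total RNA from both copies, and parental origin was not measured.

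Snrpn, Ndn and Magel2 lie close together on mouse chromosome 7, in the region that corresponds to the human Prader-Willi locus, and their promoters are shown because their probesets all read higher in the shECAD clones. Each window is RefSeq sequence of build GRCm38.p6, from 250 bases before to 50 bases after a gene start, 5′ to 3′ on the gene's strand. Capitals mark 2 motifs searched on both strands. They are TGCCGC (reverse GCGGCA), the hexamer that Zfp57 binds when methylated, and GCATGC, the centre of the motif of the factor NRF1, which was picked after the sequences had been seen. The motifs do not overlap each other in these windows.
Snurf and Snrpn, shared start, chr7:60005150-60005449, minus strand: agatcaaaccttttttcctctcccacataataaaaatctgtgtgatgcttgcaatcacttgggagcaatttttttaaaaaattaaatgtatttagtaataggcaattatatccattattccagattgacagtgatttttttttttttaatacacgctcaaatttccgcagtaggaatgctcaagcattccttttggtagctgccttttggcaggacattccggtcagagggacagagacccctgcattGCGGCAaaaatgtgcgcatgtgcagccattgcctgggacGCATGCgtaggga
Ndn, chr7:62348027-62348326, plus strand: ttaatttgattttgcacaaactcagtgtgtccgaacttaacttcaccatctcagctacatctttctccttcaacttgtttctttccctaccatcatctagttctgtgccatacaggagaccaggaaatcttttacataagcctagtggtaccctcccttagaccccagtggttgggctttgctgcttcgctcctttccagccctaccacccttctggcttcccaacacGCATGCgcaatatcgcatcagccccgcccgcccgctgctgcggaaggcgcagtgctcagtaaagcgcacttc
Magel2, chr7:62376729-62377028, plus strand: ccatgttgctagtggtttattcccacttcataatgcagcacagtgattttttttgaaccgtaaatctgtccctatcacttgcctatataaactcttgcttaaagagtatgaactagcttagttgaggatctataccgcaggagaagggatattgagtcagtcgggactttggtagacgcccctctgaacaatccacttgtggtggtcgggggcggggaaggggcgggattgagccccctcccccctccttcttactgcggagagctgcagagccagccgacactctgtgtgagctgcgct
The shared Snurf and Snrpn window held 1 match to TGCCGC and 1 to GCATGC, the Ndn window held 1 match to GCATGC, and the Magel2 window held 0 of either. Of 32851 promoter windows of this length, 11.6% held TGCCGC and 7.93% held GCATGC. CpG dinucleotides numbered 7, 11 and 10 in the 3 windows, against a median of 7 over all windows. Windows were searched for 9 of the 10 genes, and Impact was left out of this search by choice. Of the 17 windows of the 9 genes, 6 held TGCCGC and 6 held GCATGC, some of which belong to alternative starts of 1 gene.

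Across the list, 2 genes rose in the shECAD clones, Ndn and Impact, and 0 fell by limma (Benjamini-Hochberg adjusted p below 0.05 over all genes). At an unadjusted p below 0.05 the count was 6 higher and 0 lower, where 8.96% of all genes were higher and 9.07% lower (18.0% in either direction). The 2 rises at the adjusted p are 22.2% of the 9 genes measured, against 1.90% of all genes called higher and 1.23% called lower, or 3.12% in either direction. The members were chosen with earlier results of these data known, so these shares describe the list and do not test it. In 4 genes (Ndn, Impact, Peg3 and Magel2) each shECAD clone read above every Ctrl clone, where 11.1% of all genes did. In 1 gene, Slc38a4, each shECAD clone read below every Ctrl clone, where 12.5% of all genes did. The median log2 fold change (shECAD minus Ctrl) was 0.81 over the 9 genes and 0.025 over all genes. All 9 passed the filter of the fit limited to genes at or above the median level. Ndn and Impact were both called with a high Eif2s3y level, which shECAD clone 9 and Ctrl clone 3 have, as a covariate (limma adjusted p = 0.0157 and 0.0431). In that fit 2.63% of all genes were called in either direction. Without shECAD clone 4, shECAD clone 8 or Ctrl clone 3 no member was called, without shECAD clone 9 the call was Ndn alone, and without Ctrl clone 4 the calls were Ndn and Peg3. Without Ctrl clone 2 the calls were Ndn, Impact and Plagl1 higher and Grb10 lower. Fewer of all genes were called in each of these fits than with all 6 clones. The share in either direction was 1.16%, 0.78% and 1.45% without shECAD clones 4, 8 and 9. It was 2.72%, 1.36% and 0.73% without Ctrl clones 2, 3 and 4. In a fit without variance moderation 0 members and 3 of all genes were called, and 3 members were higher and 0 lower at an unadjusted p below 0.05, where 6.91% of all genes were higher and 7.99% lower (14.9% in either direction). With the median level of each array set equal, the median over all genes was -0.065 and that of the members 0.72.

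**Figure D1:**
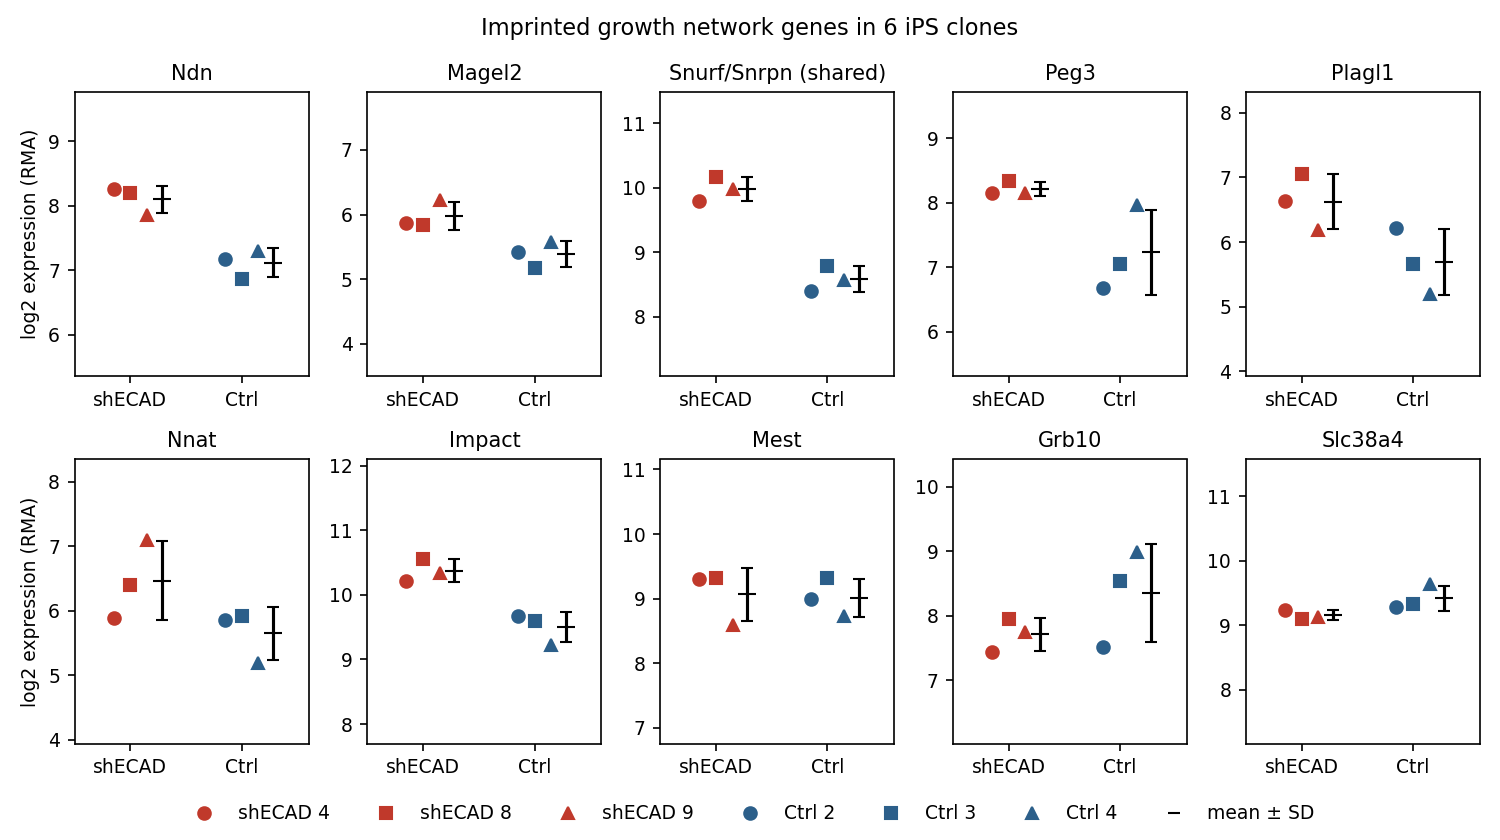
Log2 expression of each gene in the 3 shECAD clones (red, left) and the 3 Ctrl clones (blue, right), with the mean and SD of each group in black and the same span on every vertical axis. The groups do not overlap for Ndn, Impact, Peg3, Magel2, Slc38a4 (by only 0.044) and the probeset shared by Snurf and Snrpn. Of all genes, 23.6% did not overlap.

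**Figure D2:**
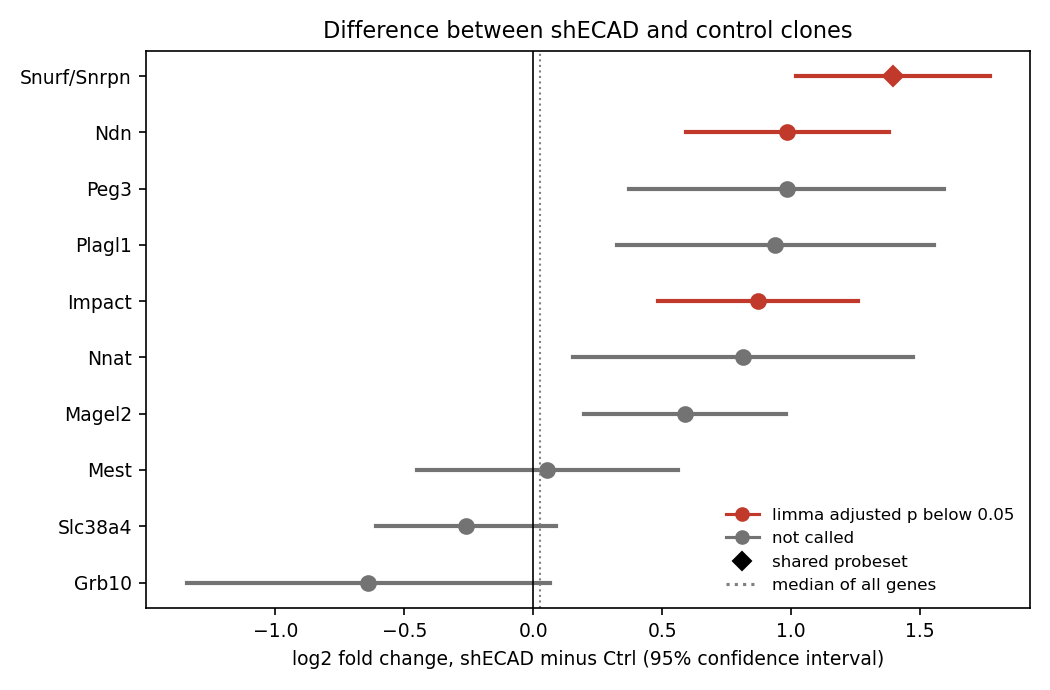
Log2 fold change (shECAD minus Ctrl) with its 95% confidence interval from limma, called genes in red and others in grey. Ndn and Impact are called, and the probeset shared by Snurf and Snrpn (diamond) is called in a fit that also holds probesets with several symbols.

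In the chromosome 7 domain Ndn and the probeset of Snurf and Snrpn rose, and Magel2 missed the threshold. Ndn, which encodes necdin, a MAGE-family protein that restrains the cell cycle in neurons, read 8.25, 8.19 and 7.87 in shECAD clones 4, 8 and 9, against 7.18, 6.87 and 7.31 in Ctrl clones 2, 3 and 4. The lowest shECAD clone lay 0.56 log2 units above the highest Ctrl clone. Its mean was 8.10 ± 0.21 in the shECAD clones and 7.12 ± 0.22 in the Ctrl clones (SD, n = 3 each), a 1.98-fold rise (log2 fold change 0.99 ± 0.18 SE, limma adjusted p = 0.0205). The change was between 0.86 and 1.10 with any 1 clone left out, and the call was lost without shECAD clone 4 (limma adjusted p = 0.0712), shECAD clone 8 (0.0767) or Ctrl clone 3 (0.0575).

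Magel2, the neighbour of Ndn, encodes another MAGE protein, which acts with the ubiquitin ligase Trim27 in recycling proteins from endosomes. It read 5.87, 5.83 and 6.23 in shECAD clones 4, 8 and 9, against 5.42, 5.17 and 5.58 in Ctrl clones 2, 3 and 4. The groups did not overlap, with a gap of 0.25 between the nearest clones. Magel2 differed by 0.59 ± 0.18 (log2 fold change and SE, 95% confidence interval 0.20 to 0.98), which missed the threshold (limma adjusted p = 0.106).

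The probeset shared by Snurf and Snrpn (10564211) covers a transcript that encodes 2 proteins, of which the Snrpn product is the spliceosome protein SmN. It read 9.79, 10.17 and 9.98 in shECAD clones 4, 8 and 9, against 8.40, 8.79 and 8.57 in Ctrl clones 2, 3 and 4. The nearest clones of the groups were just over 1 log2 unit apart. Tested beside all other probesets with several symbols, it rose 2.63-fold (log2 fold change 1.39 ± 0.17 SE, 95% confidence interval 1.02 to 1.77, limma adjusted p = 0.0126). Of the 21559 features in that fit 1.34% were called higher and 2.02% in either direction. There Ndn and Impact were also called, with limma adjusted p-values of 0.0312 and 0.0421. The change of the shared probeset was between 1.30 and 1.49 with any 1 clone left out, and the call was lost without Ctrl clone 4 (limma adjusted p = 0.053). Whether the values belong to Snurf, Snrpn or both cannot be told apart on this array.

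Small nucleolar RNAs of the same domain did not separate the groups. The array holds 24 probesets that the annotation shares between Snord116l1, Snord116l2 and Gm26504, and 18 of them carry the same values as another. Their median log2 level was 6.71, 6.40 and 5.24 in shECAD clones 4, 8 and 9, against 4.94, 6.48 and 4.75 in Ctrl clones 2, 3 and 4. Ctrl clone 3 lay between the 2 higher shECAD clones, and shECAD clone 9 lay near the lower Ctrl clones. Their log2 fold changes were between 0.59 and 0.79, and none of the 24 passed (limma adjusted p from 0.454 to 0.546). A probeset that the annotation shares between Ube3a and 3 other symbols had a log2 fold change of 0.13 (limma adjusted p = 0.758).

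The transcription factor genes Peg3 and Plagl1 read higher on average in the shECAD clones but varied among the Ctrl clones. Peg3, a zinc finger gene tied to fetal growth and maternal behaviour, read 8.15, 8.34 and 8.15 in shECAD clones 4, 8 and 9, against 6.68, 7.05 and 7.96 in Ctrl clones 2, 3 and 4. The shECAD clones lay close together (SD 0.11), while the Ctrl clones spread widely (SD 0.66) and Ctrl clone 4 came within 0.19 of the shECAD range. Peg3 differed by 0.98 ± 0.28 (log2 fold change and SE, 95% confidence interval 0.37 to 1.59), which missed the threshold (limma adjusted p = 0.086). Without Ctrl clone 4 it was 1.35 and was called (limma adjusted p = 0.0221), and without Ctrl clone 2 it was 0.71 (0.182). Plagl1, the zinc finger gene also known as Zac1, read 6.63, 7.06 and 6.19 in shECAD clones 4, 8 and 9, against 6.22, 5.65 and 5.19 in Ctrl clones 2, 3 and 4. The groups overlapped, since shECAD clone 9 lay just under Ctrl clone 2. Plagl1 differed by 0.94 ± 0.28 (log2 fold change and SE, 95% confidence interval 0.32 to 1.55), which missed the threshold (limma adjusted p = 0.101). It was called without Ctrl clone 2 (1.20, limma adjusted p = 0.0464) and with array quality weights (1.14, 0.0337).

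Impact, which restrains the amino acid sensing kinase Gcn2 by binding Gcn1, read 10.22, 10.56 and 10.34 in shECAD clones 4, 8 and 9, against 9.68, 9.60 and 9.23 in Ctrl clones 2, 3 and 4. The groups were 0.54 log2 units apart at their nearest clones. The mean of Impact was 10.37 ± 0.18 in the shECAD clones and 9.50 ± 0.24 in the Ctrl clones (SD, n = 3 each), a 1.83-fold rise (log2 fold change 0.87 ± 0.18 SE, limma adjusted p = 0.0302). With 1 clone left out the change lay between 0.74 and 0.96, and the call of Impact held only without Ctrl clone 2 (limma adjusted p = 0.0372). Elsewhere it reached limma adjusted p-values up to 0.127, without Ctrl clone 4. Nnat, which encodes a small membrane protein of the endoplasmic reticulum that acts on the calcium pump Atp2a2, read 5.88, 6.41 and 7.10 in shECAD clones 4, 8 and 9, against 5.85, 5.91 and 5.18 in Ctrl clones 2, 3 and 4. The shECAD clones spread over more than 1 log2 unit, and the lowest of them lay inside the Ctrl range. Nnat differed by 0.81 ± 0.30 (log2 fold change and SE, 95% confidence interval 0.16 to 1.47), which missed the threshold (limma adjusted p = 0.178). Without shECAD clone 9 it was 0.49.

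Grb10, Slc38a4 and Mest did not read higher beyond the spread. Grb10, an adaptor that binds the insulin and IGF1 receptors and limits growth, read 7.45, 7.94 and 7.75 in shECAD clones 4, 8 and 9, against 7.51, 8.55 and 9.00 in Ctrl clones 2, 3 and 4. Ctrl clone 2 lay among the shECAD clones and the other Ctrl clones above them. Grb10 differed by -0.64 ± 0.32 (log2 fold change and SE, 95% confidence interval -1.34 to 0.066), which missed the threshold (limma adjusted p = 0.327). Without Ctrl clone 2 it was -1.06 and was called (limma adjusted p = 0.037), and without Ctrl clone 4 it was -0.32. Slc38a4, a transporter of neutral amino acids with a known role in the placenta, read 9.24, 9.10 and 9.13 in shECAD clones 4, 8 and 9, against 9.28, 9.33 and 9.63 in Ctrl clones 2, 3 and 4. Each shECAD clone lay below every Ctrl clone, by 0.044 at the nearest. Slc38a4 differed by -0.26 ± 0.16 (log2 fold change and SE, 95% confidence interval -0.61 to 0.089), which missed the threshold (limma adjusted p = 0.426). Mest, an enzyme of the alpha/beta hydrolase family tied to fetal and fat tissue growth, read 9.30, 9.31 and 8.59 in shECAD clones 4, 8 and 9, against 8.99, 9.32 and 8.73 in Ctrl clones 2, 3 and 4. The groups overlapped over most of their range. Mest differed by 0.055 ± 0.23 (log2 fold change and SE, 95% confidence interval -0.45 to 0.56), which missed the threshold (limma adjusted p = 0.927), and it was -0.035 with the median level of each array set equal.

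**Figure D3:**
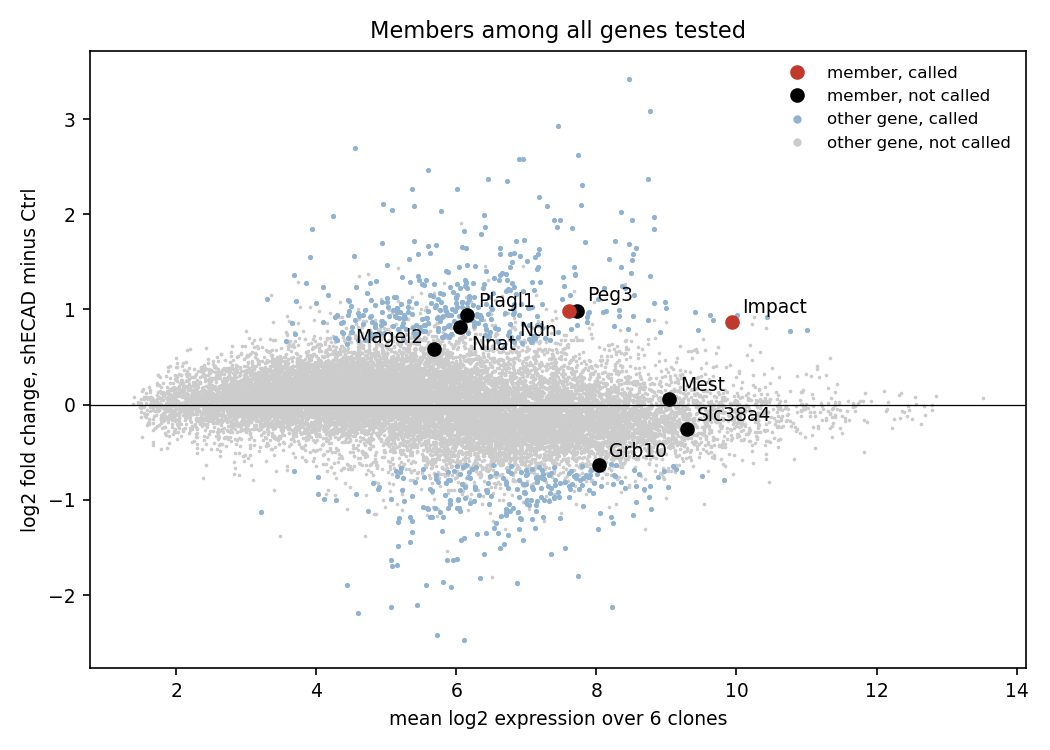
Log2 fold change (shECAD minus Ctrl, vertical axis) against the mean log2 expression over 6 clones (horizontal axis) for 19938 genes, with the 9 members named. Ndn and Impact (red) were called, and 7 of the 9 members lie above 0, Mest among them at 0.055, which was -0.035 with the median level of each array set equal.

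Fibroblast and feeder genes moved with the groups, and their part in the changes above was not tested. Of 22 such genes measured, 13 rose and 0 fell (limma adjusted p below 0.05), where 1.90% of all genes were called higher and 1.23% lower. At an unadjusted p below 0.05, 19 were higher and 0 lower, where 8.96% of all genes were higher and 9.07% lower. The list's mean log2 level was 7.28, 7.60 and 7.33 in shECAD clones 4, 8 and 9, against 6.64, 6.24 and 5.65 in Ctrl clones 2, 3 and 4. Of the 22, 17 had a mean above the median gene. The 5 called genes with the largest log2 fold changes were the collagen crosslinking enzyme gene Lox (2.35), Postn (2.26), Fbln2 (2.10), Ccdc80 (2.05) and the collagen gene Col1a1 (1.97), while Pdgfra (0.38), Dcn (0.48) and Lum (-0.23) were not. In these bulk samples, more cells of a type and more RNA per cell cannot be told apart. Within the Ctrl clones, Plagl1 and Impact were highest in clone 2 and lowest in clone 4, as was the fibroblast list. Peg3, Grb10 and Slc38a4 had the opposite order. Ndn and Magel2 were highest in Ctrl clone 4, where the fibroblast list was lowest. Nnat, Mest and the probeset of Snurf and Snrpn were highest in Ctrl clone 3. An order of 3 clones is weak evidence, and its bearing on the group differences was not tested. With the list's mean as a covariate, limma called 0 of all genes and the median SE was 0.41 instead of 0.18. In that fit the log2 fold change was 1.14 ± 0.43 (SE) for Ndn, 0.88 ± 0.42 for Magel2 and 2.33 ± 0.44 for Peg3. It was 0.23 ± 0.36 for Impact, -0.0048 ± 0.63 for Nnat and -0.43 ± 0.44 for Plagl1. With probesets of several symbols added, it was 1.41 for the probeset of Snurf and Snrpn, which was not called there (limma adjusted p = 0.999). The list's mean was higher in every shECAD clone than in any Ctrl clone, so such a fit cannot separate the list from the group. At an unadjusted p below 0.05 that fit had 2 of the 9 members higher and 0 lower, and 1.93% of all genes higher and 1.96% lower (3.88% in either direction). Without that covariate, limma called 0 of 11 neural, 8 endoderm and 8 trophoblast markers measured, in either direction. In the same fit 3.12% of all genes were called. At an unadjusted p below 0.05, 1, 3 and 1 of these markers were higher and 0 lower. The shares of all genes there were 8.96% higher and 9.07% lower. Of the markers, 4, 5 and 2 had a mean above the median gene. The largest log2 differences in these lists were in Snap25 (0.53) and Tubb3 (-0.45), Dab2 (0.99) and Gata6 (0.59), and Krt7 (0.57) and Eomes (0.56).

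**Figure D4:**
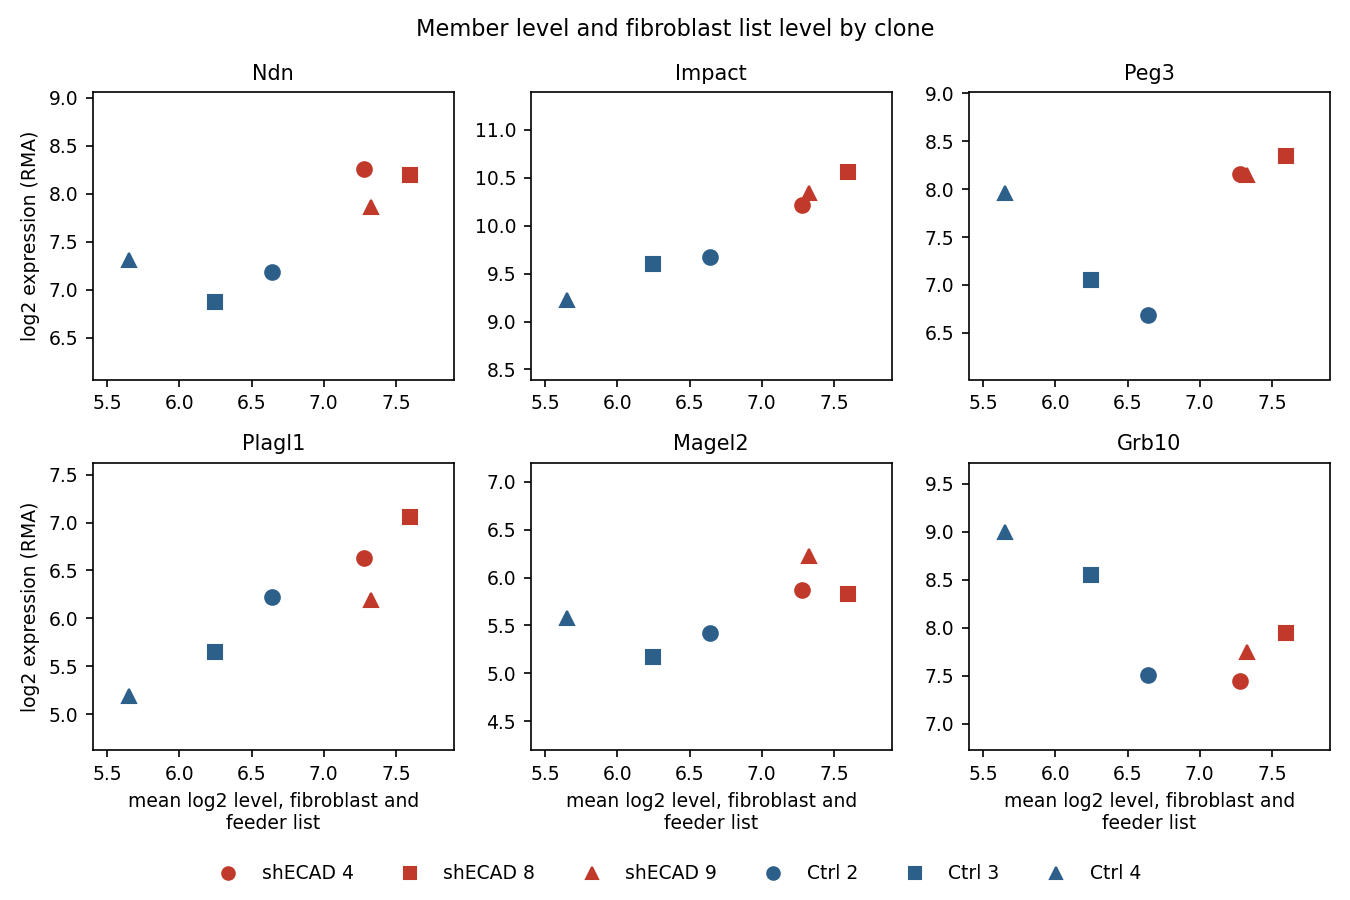
Log2 expression of 6 members (vertical axes) against the mean log2 level of 22 fibroblast and feeder genes (horizontal axes) in the 3 shECAD clones (red) and the 3 Ctrl clones (blue). The shECAD clones lie to the right of the Ctrl clones in every panel, and within the Ctrl clones Plagl1 and Peg3 run in opposite directions.

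The genes that lie beside the members, some imprinted and some not, mostly missed the threshold. Of 19 measured neighbours, 0 rose and 1 fell, where 1.90% of all genes were called higher and 1.23% lower. At an unadjusted p below 0.05, 4 were higher and 4 lower, where 8.96% of all genes were higher and 9.07% lower. The median log2 fold change of the neighbours was 0.10. The neighbour that fell was Cobl, an actin nucleator that flanks Grb10. It read 6.00, 6.13 and 5.71 in shECAD clones 4, 8 and 9, against 7.43, 6.87 and 7.28 in Ctrl clones 2, 3 and 4 (log2 fold change -1.25 ± 0.19 SE, limma adjusted p = 0.0120). The call of Cobl held with any 1 clone left out, with limma adjusted p-values up to 0.0473. Ddc, the gene of a dopamine and serotonin synthesis enzyme on the other side of Grb10, had a log2 fold change of -0.68 (limma adjusted p = 0.0600). The genes on either side of Peg3, Zim1 and Usp29, differed by 0.32 and 0.52 on the log2 scale, short of the threshold. The same holds for Mkrn3 (0.23), Peg12 (0.14) and Atp10a (0.76) of the Snrpn domain, Copg2 beside Mest (-0.49) and Blcap, in whose intron Nnat lies (0.29).

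Among imprinted genes elsewhere, 3 of 33 rose and 0 fell, where 1.90% of all genes were called higher and 1.23% lower. At an unadjusted p below 0.05, 9 were higher and 1 lower, where 8.96% of all genes were higher and 9.07% lower. The median log2 fold change of the 33 was 0.29. Peg10, a gene derived from a retrotransposon and needed in the placenta, read 9.92 ± 0.52 in the shECAD clones and 7.55 ± 0.18 in the Ctrl clones (SD, n = 3 each, limma adjusted p = 0.00282). Its call held with any 1 clone left out. The log2 fold changes of the other two were 0.97 for Dlk1, an inhibitor of fat cell formation, and 1.55 for Sfmbt2, a Polycomb gene (limma adjusted p = 0.0195 and 0.0252). Dlk1 lost its call without shECAD clone 8, shECAD clone 9, Ctrl clone 3 or Ctrl clone 4 (limma adjusted p up to 0.0783), and Sfmbt2 without shECAD clone 4, shECAD clone 8 or Ctrl clone 4 (up to 0.0772). The fetal growth factor gene Igf2 differed by 1.19 on the log2 scale without passing (limma adjusted p = 0.0834). Of the 33 genes, Dcn is also on the fibroblast list.

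**Figure D5:**
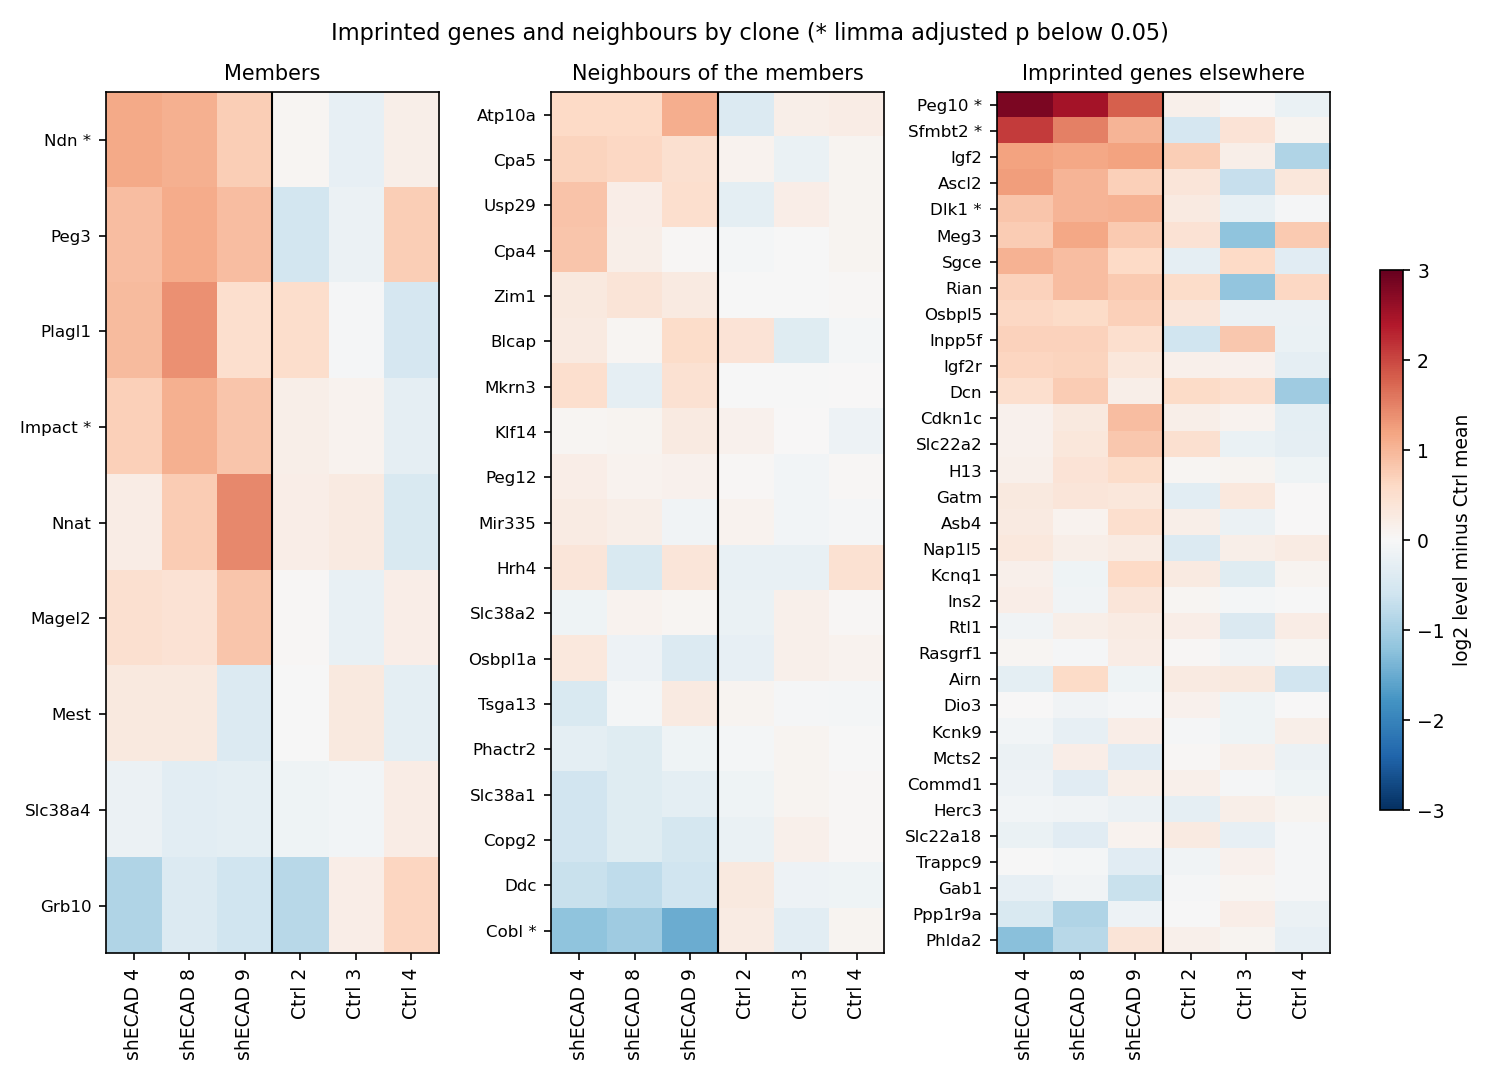
Log2 level of each gene minus its Ctrl mean in the 3 shECAD clones and the 3 Ctrl clones, for the members, their neighbours and imprinted genes elsewhere, from the largest rise (top) to the largest fall. Asterisks mark limma adjusted p below 0.05, which were Ndn and Impact, Cobl, and Peg10, Sfmbt2 and Dlk1.

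Of 17 genes that keep or erase imprints, 2 fell and 0 rose in the shECAD clones, where 1.23% of all genes were called lower and 1.90% higher. At an unadjusted p below 0.05, 7 were lower and 0 higher, where 9.07% of all genes were lower and 8.96% higher. Uhrf1, which guides Dnmt1 to newly copied DNA, read 8.34 ± 0.12 in the shECAD clones and 9.19 ± 0.13 in the Ctrl clones (SD, n = 3 each, log2 fold change -0.85, limma adjusted p = 0.0201). The demethylation enzyme gene Tet1 had a log2 fold change of -0.79 (limma adjusted p = 0.0462), and its call was lost with any 1 clone left out (limma adjusted p up to 0.162) and under quantile normalization (0.0551). Uhrf1 lost its call without shECAD clone 4, shECAD clone 8 or Ctrl clone 4 (limma adjusted p up to 0.0931). Zfp57, whose protein protects imprints, read 8.52, 8.43 and 7.19 in shECAD clones 4, 8 and 9, against 9.49, 9.08 and 9.49 in Ctrl clones 2, 3 and 4. The groups did not overlap, with the lowest value in shECAD clone 9, and the difference of -1.31 ± 0.31 (log2, SE) missed the threshold (limma adjusted p = 0.0519). Dnmt1 had a log2 fold change of -0.61 (limma adjusted p = 0.0628) and Trim28 one of -0.27 (0.38).

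The genes that work with the members showed 0 calls among 22 measured by limma, where 3.12% of all genes were called. At an unadjusted p below 0.05, 3 were higher and 4 lower, where 8.96% of all genes were higher and 9.07% lower. The largest log2 differences among the 22 were in Trib3, a target of the amino acid response (-0.69), and Irs2, an adaptor of insulin signalling (0.60). Around Impact, the log2 fold change was -0.36 for Eif2ak4, which encodes Gcn2, -0.21 for Gcn1 and -0.57 for the response gene Asns. The insulin receptor gene Insr, whose product Grb10 binds, had one of 0.56, and Trim27, the partner of Magel2, one of -0.35. None of these passed. Of 13 paralogues of the members 0 were called by limma, where 3.12% of all genes were called. At an unadjusted p below 0.05, 4 paralogues were higher and 0 lower. The shares of all genes were again 8.96% higher and 9.07% lower. The largest log2 differences were in Grb14 (0.68) and the MAGE gene Magee1 (0.60), and Snrpb, the close relative of Snrpn, had a log2 fold change of -0.18.

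For the 3 members that varied most over the 6 clones, the genes with the most similar pattern were found by Pearson correlation over the 6 clones, within a pool of 748 brighter and variable genes. For Peg3 they were the oxygen sensor gene Egln3 (r = 0.98), the stress gene Ddit4 (0.97) and the surface protein gene Podxl (0.95). For Plagl1 they were Ahnak2 (r = 0.995), Ccn3 (0.98) and Emp3 (0.98), and for Nnat they were Psme2 (r = 0.98), Pxdn (0.97) and Tes (0.96). Over the same 6 clones r was 0.81 between Ndn and Magel2, 0.88 between Ndn and the probeset of Snurf and Snrpn, -0.92 between Impact and Slc38a4, and -0.0031 between Peg3 and Grb10. The clones share the group difference, which enters each of these values. The most similar genes are also the highest of a large pool over only 6 clones, so their high r can arise from the picking alone.

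The labelled state of the lines was checked once. Cdh1, the target of the E-cadherin shRNA, had a log2 fold change of -2.13 ± 0.27 (SE, limma adjusted p = 0.00683), lower in 3 of 3 shECAD clones than in any Ctrl clone. Of 19 pluripotency genes measured, 0 were called by limma, where 3.12% of all genes were called. At an unadjusted p below 0.05, 0 were higher and 6 lower, where 8.96% of all genes were higher and 9.07% lower. All 19 had a mean above the median gene. The largest log2 differences among the 19 were -0.81 for Esrrb and -0.79 for Fgf4. The Y-linked gene Eif2s3y read 4.82, 4.80 and 7.95 in shECAD clones 4, 8 and 9, against 4.50, 8.45 and 3.04 in Ctrl clones 2, 3 and 4. Xist, the RNA of X inactivation, read 7.88, 7.31 and 5.87 in the shECAD clones and 5.89, 5.02 and 4.42 in the Ctrl clones, in the same order of clones. Array medians lay between 5.11 and 5.30 on the log2 scale.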

How the data were processed

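RNA of 6 clones, 3 shECAD and 3 Ctrl, was measured on Affymetrix whole-transcript arrays from 100 ng of RNA each, per the labels' protocols. The authors deposited 1 log2 value per probeset and array. RMA and Partek are named in the submitters' processing notes, and their versions and the build behind the probesets were not given in the sources used here. Probe summaries of this kind cannot separate parental copies, and low values compress changes. The number of arrays limits the precision.

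Of the 28853 probesets, 21789 name a single gene, 1621 name more than 1 gene and 5443 are unnamed here. The brightest probeset stood for each gene, which left 19938 genes. By Entrez identifier, 21698 probesets matched RefSeq and 91 kept the annotation's symbol. Groups were compared with limma 3.58.1 in R 4.3.3 (lmFit and eBayes, no covariate), with Benjamini-Hochberg adjustment over all genes and a threshold of 0.05. The fit was tested on simulated data with independent noise in each gene, a setting without the patterns that genes of a clone may share. Figures were drawn with matplotlib 3.10.9.

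The members and gene lists were chosen with earlier results of these data known. The named genes are the members, Cdh1, in each list up to 5 called genes or else the 2 with the largest change, and, for each of the 3 most variable members, the 3 most similar genes with an SD of at least 0.5 and a mean at or above the median (predicted loci left out). Further list members and neighbours were named with their values known. The alternatives were other scalings, a filter on dim genes, other probeset rules, other variance priors, array weights, an adjusted p of 0.1, the fibroblast list mean as a covariate and leaving out each clone. A Y-linked covariate (Eif2s3y above 6.5) and probesets with several symbols were added after the data were seen.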

Additional observations from a re-analysis of the deposited data

Results flagged for a closer look

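The probeset shared by Snurf and Snrpn lies outside the comparison by gene, because its annotation names more than 1 gene. It read 9.98 ± 0.19 in the shECAD clones and 8.59 ± 0.20 in the Ctrl clones (SD, n = 3 each), a log2 fold change of 1.39 that stood above the level of the Ctrl clones in 3 of 3 shECAD clones (limma adjusted p = 0.0126). It ranked 22 of 21559 features by p-value in the fit that held such probesets.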

How the results depend on the processing

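The median log2 fold change of the members, 0.81, was positive under each alternative run. It was 0.23 when the mean of the fibroblast list entered as a covariate and ran from 0.49 to 0.91 with 1 clone left out. The count of members called higher, 2, was 0 without variance moderation, 0 with that covariate and between 0 and 3 with 1 clone left out. Members called lower numbered 0, and between 0 and 1 with 1 clone left out. Imprinted genes elsewhere called numbered 3 and became 7 with array weights, 7 at an adjusted p of 0.1, 0 without variance moderation and 0 with the fibroblast covariate. They ran from 1 to 5 with 1 clone left out. With the fibroblast covariate the log2 fold change turned sign for Grb10 (0.77), Mest (-0.42), Nnat (-0.0048), Plagl1 (-0.43) and Slc38a4 (0.19). Mest also turned when each array was centred on its median (-0.035), and ran from -0.087 to 0.29 with 1 clone left out. The cause of these changes was not tested. Over all genes 623 were called, against 0 with that covariate, 3 without variance moderation, 1067 with array weights, 1278 at an adjusted p of 0.1 and between 146 and 543 with 1 clone left out. After median centring the 378 higher and 245 lower became 298 higher and 383 lower. No paired analysis was possible because the groups share only the clone number 4, which names a clone and pairs nothing. Signal over background is not given per probeset, so small changes of dim genes may be missed.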
